A study of Mus musculus with 21 samples.

Results

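The genes described here are 9 mouse genes of leukocyte adhesion: the integrin alpha chains Itgal and Itga4, the beta chains Itgb2, Itgb1 and Itgb7, the immunoglobulin-family ligands Icam1, Icam2 and Icam4, and the adaptor Rassf5. They are 9 of the 21844 gene symbols in a table of 22119 rows that compares EL4 cells carrying a hairpin against Ctcf (shCTCF) with EL4 cells carrying a hairpin against luciferase (shLuc). They were chosen for what they do and selected on measured values of this same contrast (their RPKM in shCTCF against shLuc), in which Icam4 had already been seen to be higher and Itgal and Rassf5 lower. Their changes between the hairpins are therefore given as a description, and nothing is read from whether they passed the test.

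The study asked how CTCF, a DNA-binding protein with zinc fingers that marks insulators and anchors chromatin loops, relates to contacts between enhancers and promoters and to gene expression. EL4 is a T lymphoma line from a C57BL/6 mouse. Both groups are this 1 line, grown in the same serum-containing medium, and each has 2 libraries of poly(A) RNA. The shCTCF cells differ from the shLuc cells by the hairpin, and the labels do not say how the hairpins were delivered. These are 4 of the 21 samples of the series. Nothing in the labels says that the 2 libraries of a hairpin came from separate cultures, so their spread may be technical. With a single hairpin against Ctcf, its effect through Ctcf and any other effect it has cannot be told apart. The libraries are named by the numbers 2 and 3 that the table's headers give them.

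Integrins are pairs of an alpha and a beta chain that sit in the plasma membrane and bind ligands on other cells or in the matrix. On T cells the pair of Itgal and Itgb2 forms LFA-1, which binds the ICAM proteins and holds T cells to antigen-presenting cells and to the vessel wall. Itga4 pairs with Itgb1 to form VLA-4, which binds VCAM-1, and with Itgb7 to form the gut-homing integrin that binds MAdCAM-1. Rassf5, of which the T-cell form is called RAPL, binds the active small GTPase Rap1 and carries its signal to LFA-1, which then takes up its adhesive state.

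Levels are RPKM, that is reads divided by the length of the gene model and by the depth of the library, so they can be compared between genes. Of the genes with 1 transcript model, 96.5% gave values that are whole multiples of what 1 read is worth, and from these the reads behind a value were recovered. The divisors of the 4 libraries were about 5240000 and 6133000 reads for shLuc and 4347000 and 5769000 for shCTCF. A read per kilobase was worth 0.163 to 0.23 RPKM. Ctcf itself stood at 49 and 50.9 RPKM in the shLuc libraries and at 26.5 and 26.4 RPKM in the shCTCF libraries, a log2 change of -0.89 (SE 0.08, limma adjusted p = 0.0075). Every call in this comparison rests on both shLuc libraries: without library 2 no gene of the 9898 passed, and without library 3 only 2 genes did, neither of them among the 128 that passed with all libraries. All 10 T-cell markers with a row of their own, among them Cd3e, Lck and Thy1, were above 1 RPKM, and none of the 6 B-cell, 5 erythroid, 6 endothelial or 6 fibroblast markers with a row of their own was. Of the myeloid markers 2 of 11 were above it, of the NK-cell markers 1 of 5 and of the platelet markers 1 of 5.

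Promoters of 3 of the genes are shown because they belong to the gene that was highest over its control (Icam4), its next gene on the chromosome (Icam1) and the gene that fell furthest (Rassf5). Each is the 250 bases before the RefSeq start site, read 5′ to 3′ on the gene's strand, in the assembly GRCm38.p6. Capitals mark matches, on either strand, to the GC box GGGCGG or to the NF-kB motif GGAAATTCC.
Icam4 (chr9:21029182-21029431, plus strand): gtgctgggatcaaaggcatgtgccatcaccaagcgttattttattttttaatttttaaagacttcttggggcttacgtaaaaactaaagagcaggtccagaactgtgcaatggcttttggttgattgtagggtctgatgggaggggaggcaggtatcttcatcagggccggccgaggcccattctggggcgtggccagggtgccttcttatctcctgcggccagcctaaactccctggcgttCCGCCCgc
Icam1 (chr9:21015690-21015939, plus strand): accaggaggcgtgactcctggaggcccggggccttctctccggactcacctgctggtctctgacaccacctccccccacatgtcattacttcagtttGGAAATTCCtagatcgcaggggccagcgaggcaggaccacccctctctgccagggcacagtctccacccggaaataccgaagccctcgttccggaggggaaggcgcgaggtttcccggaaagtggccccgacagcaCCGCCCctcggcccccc
Rassf5 (chr1:131200186-131200435, minus strand): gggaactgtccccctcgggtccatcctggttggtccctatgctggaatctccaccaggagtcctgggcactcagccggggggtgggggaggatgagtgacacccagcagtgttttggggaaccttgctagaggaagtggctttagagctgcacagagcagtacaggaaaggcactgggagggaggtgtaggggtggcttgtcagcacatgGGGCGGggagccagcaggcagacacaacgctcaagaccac
Each of the 3 windows holds 1 GC box, which begins at position -8 from the start site in Icam4, at -17 in Icam1 and at -40 in Rassf5. A GC box is found in 32.7% of the 32851 RefSeq promoters of this length. Icam1, a classic target of NF-kB, has the NF-kB letters at -153, a match that 0.286% of all promoters have. The CTCF core AGGGGGC was searched too and occurs in 9.43% of promoters, and the Runx motif TGTGGT in 14% of them. Neither is in these 3 windows, which says only that those letters are not there. Of the 6 genes with an entry, only Itga4 has the CTCF core, at -133, and it has a Runx match at -60 and a GC box at -114. Itgb1 has a GC box at -151, and none of the 4 motifs is in the window of Itgb7. Matches are descriptions of sequence, and binding at these sites was not measured here. Which start sites EL4 cells use was not tested.

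**Figure D1:**
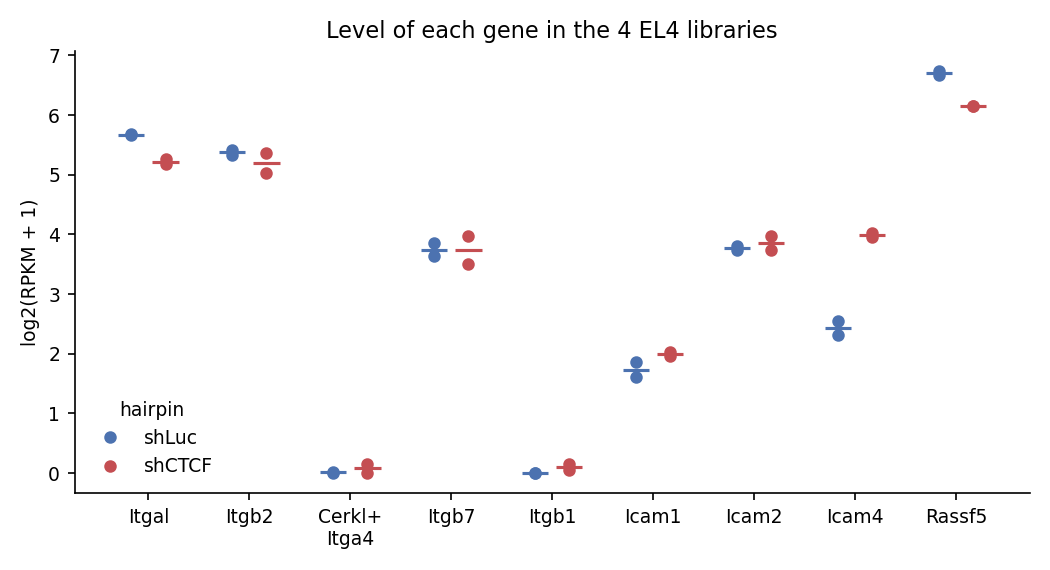
Level of each of the 9 genes as log2(RPKM + 1) in the 2 shLuc (blue) and 2 shCTCF (red) libraries. Points are libraries and bars are group means; Itga4 is shown by the row it shares with Cerkl. Rassf5 and Itgal lie lower and Icam4 higher in both shCTCF libraries, and Itgb1 and the Itga4 row lie near 0.

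Among the integrin chains with a row of their own, Itgal, the alpha chain of LFA-1, had the highest level with shLuc. It stood at 50.1 and 49.6 RPKM in the shLuc libraries and at 37.4 and 35.2 RPKM in the shCTCF libraries. Both shCTCF values lie below both shLuc values, and each pair of libraries is tight. The means were 49.8 ± 0.408 RPKM (SD, n = 2) and 36.3 ± 1.59 RPKM (SD, n = 2), a mean that fell by 27.2%. The log2 change on log2(RPKM + 1) was -0.45 (SE 0.08, 95% interval -0.64 to -0.26). Itgal has 4 transcript models in its row, for which reads were not recovered.

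Itgb2, the beta chain that LFA-1 shares with the myeloid integrins, stood at 41.9 and 39.3 RPKM with shLuc and at 40.1 and 31.8 RPKM with shCTCF. These values rest on 628, 690, 499 and 525 reads. The groups overlap: shCTCF library 2 lies between the 2 shLuc libraries and only shCTCF library 3 lies below them. The log2 change was -0.18 (SE 0.12, 95% interval -0.44 to 0.09), an interval that holds no change and ends at its lower side close to the change of Itgal. The ratio of Itgal to Itgb2 was 1.2 and 1.26 in the shLuc libraries and 0.932 and 1.11 in the shCTCF libraries. It was lower in both shCTCF libraries, but Itgal was selected as lower, so nothing is read from the ratio.

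Itgb7, the beta chain of the gut-homing integrin, stood at 13.4 and 11.4 RPKM with shLuc and at 14.7 and 10.4 RPKM with shCTCF. The shCTCF libraries enclose the shLuc libraries, with 1 above and 1 below. The means were 12.4 ± 1.42 and 12.6 ± 3.02 RPKM (SD, n = 2 each), and the log2 change was 0.00 (SE 0.16, 95% interval -0.36 to 0.37). The direction of so small a difference turned under several alternative settings. Counting alone gives 95% Poisson intervals of 12.6 to 17.1 RPKM for shCTCF library 2 and 8.89 to 12.2 RPKM for shCTCF library 3, which do not overlap. Such intervals cover counting error only.

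The alpha chains that pair with Itgb7, and the beta chain Itgb1, were all below 1 RPKM in every library. Itga4 has no row of its own and appears only in a row joined with the neighbouring gene Cerkl. That row was listed at 0 and 0.0166 RPKM with shLuc and at 0.117 and 0 RPKM with shCTCF, which corresponds to 0, 1, 5 and 0 reads. Itgae, the other alpha chain that pairs with Itgb7, stood between 0.257 and 0.5 RPKM. Itgb1, the widely expressed beta chain of VLA-4, had no read in either shLuc library and 2 and 1 reads in the shCTCF libraries. Its values of 0.11 and 0.0413 RPKM in shCTCF lie below the 0.165 and 0.124 RPKM that 3 reads would give in the same libraries, and no fold is given. Both genes had a mean under 1 RPKM and were left out of the test.

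**Figure D2:**
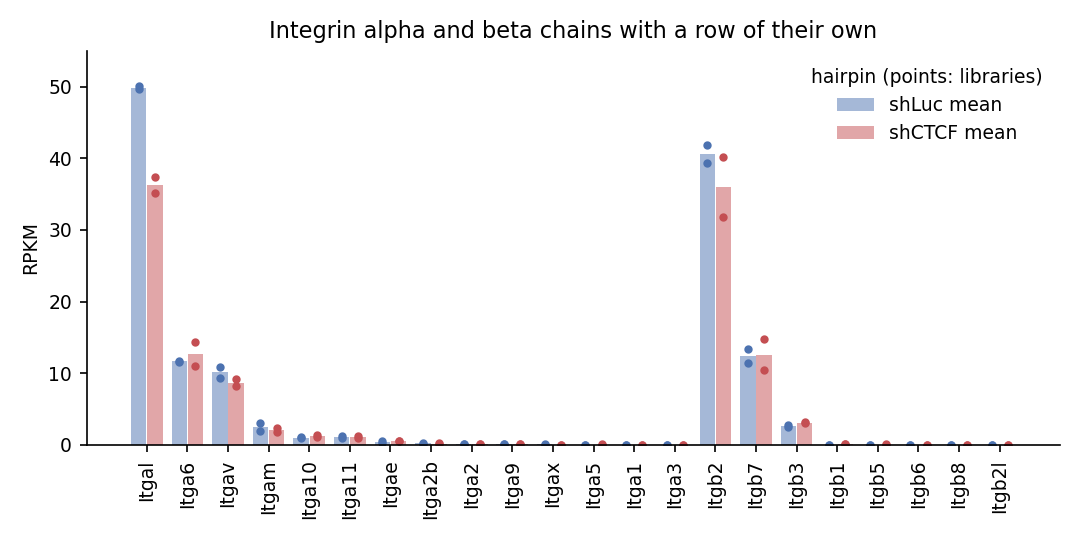
RPKM of the 14 alpha and 8 beta integrin chains that have a row of their own, ordered by level. Bars are means of 2 libraries and points are libraries (shLuc blue, shCTCF red); Itgal, Itga6 and Itgav lead the alpha chains and Itgb2 and Itgb7 the beta chains.

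Set against the other chains, the LFA-1 chains made up most of the integrin RNA measured in rows of their own. Of the 14 alpha chains with a row of their own 6 reached a mean of 1 RPKM, and of the 8 beta chains 3 did. Itgal was 65.6% and 63.8% of the summed alpha-chain RPKM in the shLuc libraries and 57.2% and 58.1% in the shCTCF libraries. Itgb2 was 72.5% and 73.5% of the summed beta-chain RPKM with shLuc and 69.1% and 69.9% with shCTCF. Both shares were lower in each shCTCF library than in either shLuc library, but the RPKM of Itgb2 itself overlapped between the groups. Itgal was selected as lower in this contrast, so nothing is read from its share. The share of Itgb7 was 21.3% to 25.3% over the 4 libraries. These sums leave out Itgb4 and 4 alpha chains, whose rows are joined with other genes.

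Itga6, a laminin receptor chain that pairs with Itgb1 or Itgb4, and Itgav, the vitronectin receptor chain, were the next alpha chains. Itga6 stood at 11.6 ± 0.0702 RPKM with shLuc and 12.7 ± 2.4 RPKM with shCTCF (SD, n = 2 each; log2 change 0.11, SE 0.13, limma adjusted p = 0.78). Itgav stood at 10.1 ± 1.13 and 8.69 ± 0.711 RPKM (SD, n = 2 each; log2 change -0.20, SE 0.12, limma adjusted p = 0.54). Neither passed the test. Itgb3, the partner of Itgav in the vitronectin receptor, was at 2.48 and 2.74 RPKM with shLuc and 3.07 and 3.15 RPKM with shCTCF.

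Icam4, the ligand first known as the LW blood group glycoprotein of red cells and a counter-receptor of LFA-1, had the largest change of the 9 genes. It stood at 4 and 4.85 RPKM in the shLuc libraries and at 14.5 and 15.3 RPKM in the shCTCF libraries. All shCTCF values lie far above all shLuc values. The reads were 19 and 27 with shLuc and 57 and 80 with shCTCF. The 95% Poisson intervals were 2.41 to 6.24 and 3.2 to 7.06 RPKM with shLuc, and 11 to 18.7 and 12.1 to 19 RPKM with shCTCF.

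The mean level of Icam4 was 4.43 ± 0.606 RPKM with shLuc and 14.9 ± 0.589 RPKM with shCTCF (SD, n = 2 each), a ratio of 3.36. The log2 change was 1.55 (SE 0.12, 95% interval 1.27 to 1.84), rank 14 from the top among 9898 tested genes. Of the markers of the red-cell lineage, 5 have a row of their own, and their sum was 0.0824 to 0.992 RPKM with shLuc and 0.45 to 0.54 RPKM with shCTCF. The joined row of the alpha globins Hba-a1 and Hba-a2 stood at 1.37 and 0.293 RPKM with shLuc and at 0 and 0.624 RPKM with shCTCF, and that of the beta globins Hbb-b1 and Hbb-b2 was listed at 0 in every library. Of the 11 myeloid markers 6 were at 0, and their sum was 4.11 to 5.08 RPKM with shLuc and 5.23 to 6.76 RPKM with shCTCF. Within that sum Cd68, a lysosomal protein abundant in macrophages, was at 1.7 and 1.46 RPKM with shLuc and 3.65 and 3.1 RPKM with shCTCF. Its groups did not overlap, but it rested on 9, 9, 16 and 18 reads. Its log2 change was 0.76 (SE 0.17, limma adjusted p = 0.089), and it did not pass. Itgam, the other myeloid marker above 1 RPKM, was at 1.92 and 3.1 RPKM with shLuc and 2.36 and 1.74 RPKM with shCTCF. Its log2 change was -0.19, and the groups overlap. The part of either marker in the level of Icam4 was not tested.

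Icam1, the main inducible ligand of LFA-1, was low in every library. It stood at 2.63 and 2.05 RPKM (35 and 32 reads) with shLuc and at 2.9 and 3.07 RPKM (32 and 45 reads) with shCTCF. Both shCTCF values lie above both shLuc values, but all 4 Poisson intervals overlap. The log2 change was 0.26 (SE 0.17, 95% interval -0.13 to 0.65).

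Icam2, the ligand that resting leukocytes and endothelium carry, was the most abundant Icam with shLuc. It stood at 12.4 and 13 RPKM with shLuc and at 14.7 and 12.3 RPKM with shCTCF, and the groups overlap. The log2 change was 0.08 (SE 0.11, 95% interval -0.18 to 0.34). Icam5, a ligand best known from neurons, stood between 0.492 and 0.896 RPKM in the 4 libraries and was not tested.

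In the makeup of the ligand RNA, the shares of Icam4 and Icam2 came to lie close to each other with shCTCF. Icam4 was 20.1% and 23.8% of the summed RPKM of the Icam genes in the shLuc libraries and 44% and 48.7% in the shCTCF libraries. Icam2 was 62.2% and 63.7% with shLuc and 44.8% and 39.1% with shCTCF. The sum itself was 19.9 and 20.4 RPKM with shLuc and 32.8 and 31.4 RPKM with shCTCF. The ratio of Icam4 to Icam1, which lie next to each other, was 1.52 and 2.36 with shLuc and 4.99 and 4.98 with shCTCF. Icam4 was selected as higher in this contrast, so nothing is read from these shares and this ratio.

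Rassf5, the Rap1 effector, was the most abundant of the 9 genes in every library. It stood at 101 and 106 RPKM with shLuc and at 70.5 RPKM in both shCTCF libraries. The reads were 1802, 2214, 1043 and 1384, the deepest of the genes with recovered reads. The row does not tell RAPL apart from other forms of Rassf5. Both shCTCF values lie below both shLuc values. The means were 104 ± 3.56 and 70.5 ± 0.00634 RPKM (SD, n = 2 each), a mean that fell by 31.9%. The SD with shCTCF is smaller than the counting error of 1043 and 1384 reads, so it does not measure the precision of the level. The log2 change was -0.55 (SE 0.08, 95% interval -0.72 to -0.37). The ratio of Rassf5 to Itgal was 2.01 and 2.14 with shLuc and 1.88 and 2 with shCTCF, and the nearest values of the groups lie closer together than the libraries within a group.

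The summed RPKM of the 10 T-cell markers was also lower with shCTCF, at 2370 to 2410 RPKM against 2660 to 2770 RPKM with shLuc. Among them Bcl11b, a transcription factor of T-cell identity, fell from 26.2 ± 1.52 to 17.2 ± 0.998 RPKM (SD, n = 2 each; log2 change -0.58, SE 0.10, limma adjusted p = 0.035), a call lost when any 1 library was left out. The CD3 chains did not pass, with log2 changes of -0.03 for Cd3d, 0.01 for Cd3e and -0.03 for Cd3g, and their groups overlap. For Lck, Zap70, Lat, Thy1, Cd28 and Tcf7 both shCTCF values lay below both shLuc values. Their log2 changes ran from -0.35 for Thy1 to -0.13 for Tcf7, and none passed. Over all tested genes the groups did not overlap, in either direction, for 44.0%. The sum is carried by abundant genes such as Tcf7 and Thy1. The part of these differences in the levels of Itgal and Rassf5 was not tested. In bulk RNA fewer cells with a transcript and less of it per cell cannot be told apart.

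**Figure D3:**
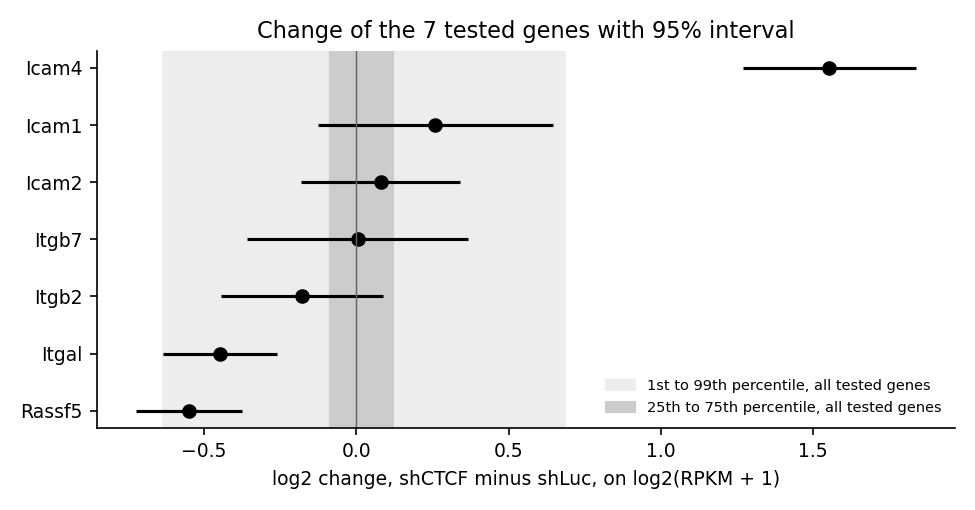
Change of the 7 tested genes, as shCTCF minus shLuc on log2(RPKM + 1), with 95% interval (line). Grey bands give the 1st to 99th (-0.64 to 0.68) and 25th to 75th (-0.09 to 0.12) percentiles of all 9898 tested genes; Icam4 at 1.55 lies outside both bands.

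Of the 9 genes 7 had a mean of 1 RPKM or more and were in the test across 9898 genes. At an adjusted p below 0.05, 1 of the 7 was higher with shCTCF (Icam4) and 2 were lower (Itgal and Rassf5). Over all tested genes 0.697% were higher and 0.596% lower by that rule. The groups did not overlap for 4 of the 7, as for 44.0% of all tested genes. Since the choice of the genes used this contrast, nothing is read from these counts. The median log2 change of the 7 was 0.00, against 0.01 over all tested genes. By size, Rassf5 ranked 142 and Itgal 228 from the bottom of the 9898. The call of Itgal was lost when any 1 library was left out and under quantile normalization, and that of Rassf5 when any 1 library was left out. The call of Icam4 was lost without either shLuc library. Leaving out a library moved the log2 changes only within -0.49 to -0.41 for Itgal, -0.58 to -0.51 for Rassf5 and 1.44 to 1.67 for Icam4.

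The authors' deposited table of changed genes holds 435 entries, or 1.97% of the 22119 rows, and lists 3 of the 9 genes. It gives Icam4 a log2 fold change of 1.73, Rassf5 one of -0.57 and Itgal one of -0.47. These are the same libraries, so the authors' deposited table is no independent measurement.

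In order of RPKM with shLuc, Rassf5 was followed by Itgal, Itgb2, Icam2, Itgb7, Icam4 and Icam1. The Itga4 row and then Itgb1 came last, near 0. Neighbours in that order did not overlap between genes, except Icam2 with Itgb7 and the 2 near 0. With shCTCF, Icam4 had moved up beside Icam2 and Itgb7, and these 3 overlapped, as did Itgal with Itgb2.

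The wider machinery was taken from lists of 117 names written from knowledge of the pathway, with earlier results of these data known. Genes in joined rows are left out of these counts, and 72 names had a row of their own and were tested. None was higher with shCTCF at an adjusted p below 0.05 and 1 was lower. Of the 72, 27 had a positive and 45 a negative log2 change, with a median of -0.04. Over all tested genes 5279 were positive and 4619 negative. At an unadjusted p below 0.05 the lists held 9 genes in either direction, where 14.1% of all tested genes had such a p.

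Among 25 tested genes of integrin activation only Fyb passed. Fyb encodes ADAP, an adaptor that links the T-cell receptor to LFA-1, and it fell from 55.5 ± 3.64 to 35.4 ± 1.41 RPKM (SD, n = 2 each; log2 change -0.63, SE 0.09, limma adjusted p = 0.016). The most abundant of this list did not pass: Rasgrp1, an exchange factor of the Ras family, was at 157 ± 4.17 and 123 ± 6.15 RPKM (SD, n = 2 each; limma adjusted p = 0.085). Rapgef1, an exchange factor for Rap1 itself, was at 136 ± 10.8 and 152 ± 10.8 RPKM (SD, n = 2 each; limma adjusted p = 0.51). The median log2 change of the list was 0.00.

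Fyb is also in the authors' deposited table, with a log2 fold change of -0.66. Its call was lost when any 1 library was left out, with log2 changes of -0.70 to -0.57.

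Among 9 tested genes of other leukocyte adhesion none passed, with 3 positive and 6 negative log2 changes, a median of -0.10 and 2 genes at an unadjusted p below 0.05 in limma (14.1% over all tested genes). Its most abundant genes were Ly9, a SLAM-family receptor, at 65.6 ± 1.69 and 65.9 ± 3.63 RPKM (SD, n = 2 each; limma adjusted p = 0.98), and Spn, the sialomucin CD43, at 55.7 ± 5.67 and 60.6 ± 5.86 RPKM (SD, n = 2 each; limma adjusted p = 0.68).

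No gene passed among 27 tested genes of adhesion signalling, 9 with a positive and 18 with a negative log2 change. Its most abundant genes were the actin regulator Coro1a, at 307 ± 26.4 and 258 ± 14.1 RPKM (SD, n = 2 each; limma adjusted p = 0.24), and the membrane linker Msn, at 189 ± 0.832 and 185 ± 6.13 RPKM (SD, n = 2 each; limma adjusted p = 0.9). Of the other Rassf genes 4 were tested, 2 on either side of 0, and none passed. Rassf2 stood at 16.1 ± 1.07 and 14.7 ± 1.05 RPKM and Rassf1 at 13.8 ± 0.628 and 13.6 ± 0.158 RPKM (SD, n = 2 each), far below Rassf5. Of 9 other integrin ligands only Spp1, the secreted protein osteopontin, was expressed enough to be tested, at 3.85 ± 0.251 and 3.85 ± 1.89 RPKM (SD, n = 2 each). Vcam1, Madcam1 and Cdh1, ligands of integrins that contain Itga4, Itgb7 or Itgae, were among the 8 below 1 RPKM.

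**Figure D4:**
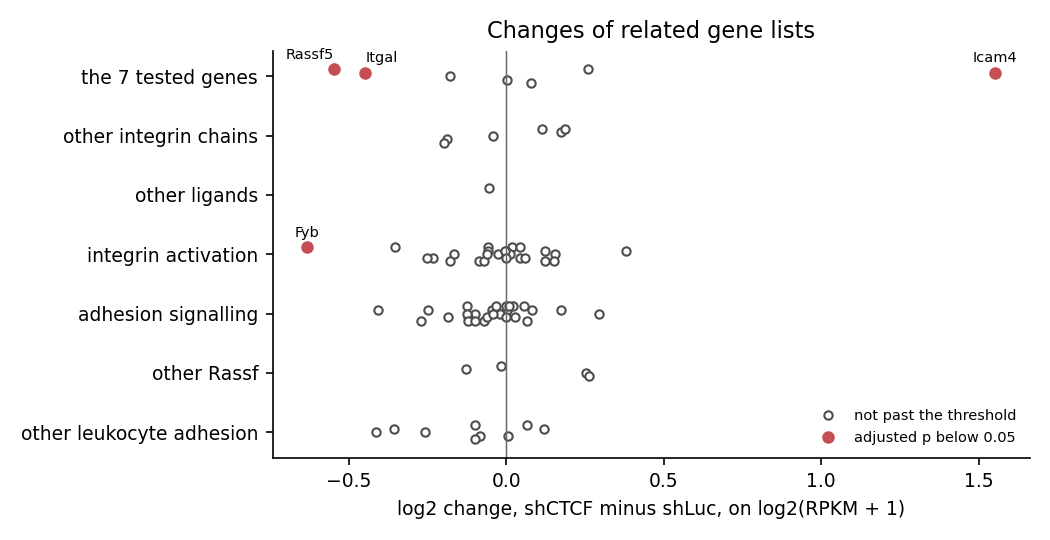
Log2 change (shCTCF minus shLuc on log2(RPKM + 1)) of each tested gene, by list; filled points passed an adjusted p of 0.05. Outside the 7 tested genes, Fyb at -0.63 is the filled point, lower with shCTCF.

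The genes beside the 9 were taken from the RefSeq gene order, 3 protein-coding genes on either side. They gave 34 distinct tested rows that are not themselves among the 9, of which 1 was higher and none lower at an adjusted p below 0.05. An unadjusted p below 0.05 in limma was found for 10 of the 34, a larger share than the 14.1% (1398 of 9898) of all tested genes. These are not spread evenly. Zfp771, Dctpp1, Zfp768 and Zfp764 among them lie beside Itgal, S1pr2 and Mrpl4 beside Icam1 and Icam4, and none beside Itgb1 or Itgb2. Rows of the same neighbourhood may not be independent. The groups did not overlap for 19 of the 34, and for 44.0% of all tested genes. The cause of this difference was not tested. Icam4 lies between Icam1 and Icam5. Its tested neighbours other than Icam1 were S1pr2, a sphingosine phosphate receptor (log2 change -0.30, SE 0.11, limma adjusted p = 0.25), Mrpl4, a mitochondrial ribosomal protein (0.23, SE 0.08, limma adjusted p = 0.26), and the joined row of Fdx1l and Raver1 (0.10, SE 0.08, limma adjusted p = 0.63). None passed.

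The neighbour that passed was Zfp768, the zinc-finger gene next to Itgal. It stood at 8.66 and 7.55 RPKM with shLuc and at 13.8 and 13.7 RPKM with shCTCF (log2 change 0.70, SE 0.11, limma adjusted p = 0.029), while Itgal beside it was lower. This call was lost when any 1 library was left out, with log2 changes of 0.61 to 0.79. On the far side of Zfp768 and Zfp747, Zfp764 was at 6.87 and 5.94 RPKM with shLuc and 3.91 and 3.58 RPKM with shCTCF and did not pass (log2 change -0.64, limma adjusted p = 0.08). The 6 neighbours of Rassf5 had log2 changes between -0.12 and 0.22, and none passed.

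**Figure D5:**
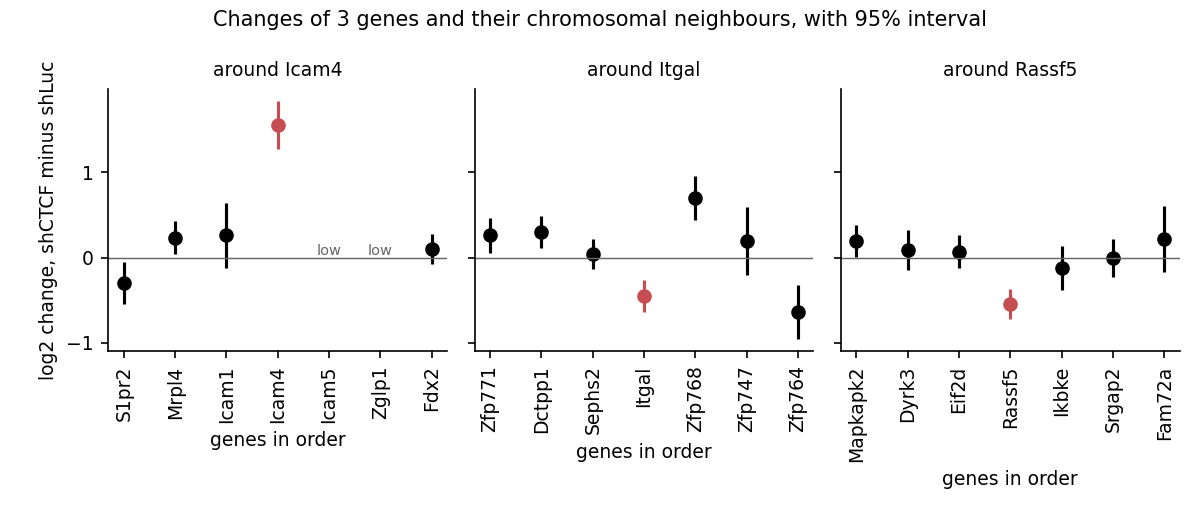
Log2 change with 95% interval of Icam4, Itgal and Rassf5 (red) and of the 3 protein-coding genes on either side (black), in chromosomal order and not to scale; "low" marks genes under 1 RPKM and Fdx2 is the joined row of Fdx1l and Raver1. Around Icam4 and Rassf5 no neighbour passed the test, and beside Itgal only Zfp768 did, at 0.70.

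Genes with the pattern most like that of Icam4 and of Rassf5 were found by Euclidean distance over the 4 libraries, on log2(RPKM + 1) less the shLuc mean. Nearest to Icam4 were Igf1 (distance 0.33), Mir103-2 (0.40) and Apoa2 (0.41). Igf1, the insulin-like growth factor, stood at 3.68 and 5.35 RPKM with shLuc and 13.7 and 12.5 RPKM with shCTCF. The row of Mir103-2 rests on 1 read in each shCTCF library and none in the shLuc libraries. Apoa2, an apolipoprotein, had 4 and 4 reads with shLuc and 11 and 15 with shCTCF. Nearest to Rassf5 were Gcet2 (0.05), Zfp777 (0.07) and Tmem154 (0.08), with means of 17.2, 13 and 10 RPKM with shLuc against 11.4, 8.45 and 6.31 RPKM with shCTCF. With 4 libraries such likeness is a description of these samples.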

How the data were processed

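RNA of EL4 cells was measured in 2 shLuc and 2 shCTCF libraries, grouped by sample titles. The authors aligned reads with Bowtie2 to mm9, per the submitters' processing notes; which program counted them is not stated. The authors deposited RPKM values for RefSeq gene models, in which overlapping genes share a row, and a table of changed genes with log2 fold change, log2 mean CPM, FDR and p-value, per the file headers, made with a tool that is not stated. The headers number the libraries of each hairpin 2 and 3 in the first table and 1 and 2 in the second, as the titles do.

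The row with the highest mean was used per symbol. The 9898 genes whose RPKM averaged 1 or more were tested with limma 3.58.1 in R 4.3.3 (trend) on log2(RPKM + 1), with Benjamini-Hochberg adjustment over all of them and a threshold of 0.05. A fold on this scale understates the change of low genes. The same limma steps were run on simulated reads with known changes, which checks the code and not the calls made here. Reads were recovered from the steps of the RPKM values (relative tolerance 3e-11) in 6792 of 7035 single-transcript rows; against the authors' log2 mean CPM the median difference was 0.01 (SD 0.24, 304 genes). Alternatives were another pseudocount, other filters, quantile normalization, each library left out, a replicate block, and limma-voom on recovered reads.

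The genes and lists were chosen with earlier results of these data known. Named are the 9 genes, the list gene that passed, the 2 most abundant tested genes per list, neighbours that passed, the Icam genes, Ctcf and the 3 genes most like Icam4 and Rassf5; Itgae, Itgb3, untested ligands, markers and further neighbours were added after their values were seen. A gene of the lists and a marker are not reported here and were left out of the counts over lists. Promoters are RefSeq's, in GRCm38.p6; 6 of the 9 genes matched. That build differs from mm9, so it gave neighbour order and sequence only. Domain lists and chromatin data were not used here. Calculations used Python 3.11.15, pandas 2.3.3, scipy 1.17.1 and matplotlib 3.10.9.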

Additional observations from a re-analysis of the deposited data

How the results depend on the processing

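With 69 genes higher and 59 lower in shCTCF over all genes, and 1 gene of the related lists lower, the counts moved as follows. With no filter, none passed in either direction or in the lists (0 genes; 1619 at an unadjusted p below 0.05 in limma). Leaving out 1 library gave 0 to 49 higher, 0 to 35 lower and 0 of the lists lower; without shLuc library 2 none of 9898 passed (1034 at an unadjusted p below 0.05). limma-voom on recovered reads (6771 genes) gave 192 higher, 167 lower and 4 of the lists lower. The planned quasi-likelihood count test on recovered reads is not reported here. No related gene was higher under any of these settings. The cause of these shifts was not tested.

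With the library number as a replicate block, 294 genes were higher, 213 lower and 4 of the lists lower. The numbers are not known to pair the libraries: deviations of same-numbered libraries correlated at 0.165 over 9898 genes, with only 2 pairs. Under the block the calls of Icam4, Itgal and Rassf5 kept their side of the threshold.

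Itgb7 turned to -0.015 with quantile normalization, -0.016 with limma-voom, to -0.105 without shLuc library 3 and to -0.225 without shCTCF library 2 (range over left-out libraries -0.225 to 0.233). Icam2 turned to -0.041 without shCTCF library 2 (range -0.041 to 0.20). Itgal, Itgb2, Icam1, Icam4 and Rassf5 kept their direction under every alternative run for them. Icam4 passed in 7 of 10 alternatives (1.44 to 1.73), Rassf5 in 5 of 10 and Itgal in 3 of 9. With no filter, Icam4, Itgal and Rassf5 did not pass either. Among the tested genes with recovered reads, reads limit Icam4 and Icam1 most: 183 and 144 over the 4 libraries, against 6443 for Rassf5.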
